A study of Rattus norvegicus with 84 samples.

Results

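The 10 genes described here are expressed from the thick ascending limb of the loop of Henle to the collecting duct of the kidney. They were taken by gene symbol, each has 1 row among the 17502 loci of the deposited tables, and all 10 were measured in each library. The data are RNA-seq libraries from male Sprague Dawley rats, made from total RNA of ground frozen kidney, liver and gastrocnemius, a calf muscle. A young group received vehicle for 6 weeks from 4.5 months of age and was read out at 6 months (10 libraries per tissue, called young below). An aged group received vehicle daily from 22.5 months and was read out at 24 months (10 libraries per tissue, called aged). The third group, of the same ages as the aged group, received RAD001 by mouth weekly, 7 doses in all, with vehicle on the remaining days (8 libraries per tissue, called treated). RAD001 is everolimus, a rapamycin derivative that inhibits the kinase complex mTORC1, and the title of the study calls the dose low. The vehicle was a microemulsion pre-concentrate in water with methylcellulose, so all 3 groups received it, and no young group on RAD001 is analysed here.

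The distal nephron sets the final salt, water, acid and mineral content of urine. The thick ascending limb reabsorbs sodium chloride without water, the distal convoluted tubule takes up sodium chloride, calcium and magnesium, principal cells of the collecting duct take up sodium and water under aldosterone and vasopressin, and intercalated cells move acid and base. Each step relies on a few transporters and channels, and their transcripts serve as markers of a segment. Some of the genes here are expressed in other segments or cells too.

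Of the 10 genes, Aqp2, Aqp3 and Egf fell with age, and Aqp2, Egf and Calb1 rose with RAD001 in aged kidney while Scnn1a fell. Umod, Slc12a1, Kcnj1, Slc12a3 and Slc4a1 did not pass the test in any of the 3 kidney comparisons. A gene was called when its adjusted p was under 0.05 in limma, with Benjamini-Hochberg adjustment over all 10447 loci tested in kidney. In the age comparison 3 of 10 genes were called, where 43.0% of all tested loci were. With RAD001 4 of 10 were called beside 37.4% of all loci, and between treated and young kidney 2 of 10 beside 26.5%, so these shares were near or below the background. By direction, 20.8% of loci rose and 22.2% fell with age, and 18.3% rose and 19.1% fell with RAD001. The age and RAD001 comparisons share the 10 aged libraries, so their changes are not independent of each other and are given side by side.

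Levels are the deposited values after scaling between libraries, and changes are log2 differences after adding 0.1. The values were read as mean read coverage per base of each locus, which was checked on loci spanning under 150 bp. Comparisons of level between genes rest on that reading. The whole-read steps in the values gave relative depths of 0.835 to 1.41 in kidney, with group medians of 1.10 in young, 1.13 in aged and 0.969 in treated libraries. Transcripts of skeletal muscle were present in treated kidneys: the summed level of 5 muscle genes ran from 0.00652 to 6.16 there, from 0.0181 to 0.108 in aged and from 0.00419 to 0.0378 in young kidney, against at least 2261 in gastrocnemius. The sum of 5 hepatocyte genes reached 8.12 in young, 0.372 in aged and 1.88 in treated kidney, against at least 3279 in liver. Calls of named genes that were lost on leaving out the 5 kidney libraries in which either sum was at least 1 (young replicates 5 and 10, treated replicates 3, 6 and 7) are named too. The locus of 7SL, a structural RNA of protein secretion, stood at 22018 to 28683 in young, 21135 to 30455 in aged and 30657 to 39092 in treated kidney. Its treated and aged ranges did not overlap, so its level and the treatment cannot be told apart, and calls lost in the fit that adds it as a covariate are named. The labels do not tie libraries to individual rats, and the p-values measure the spread between these libraries.

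**Figure D1:**
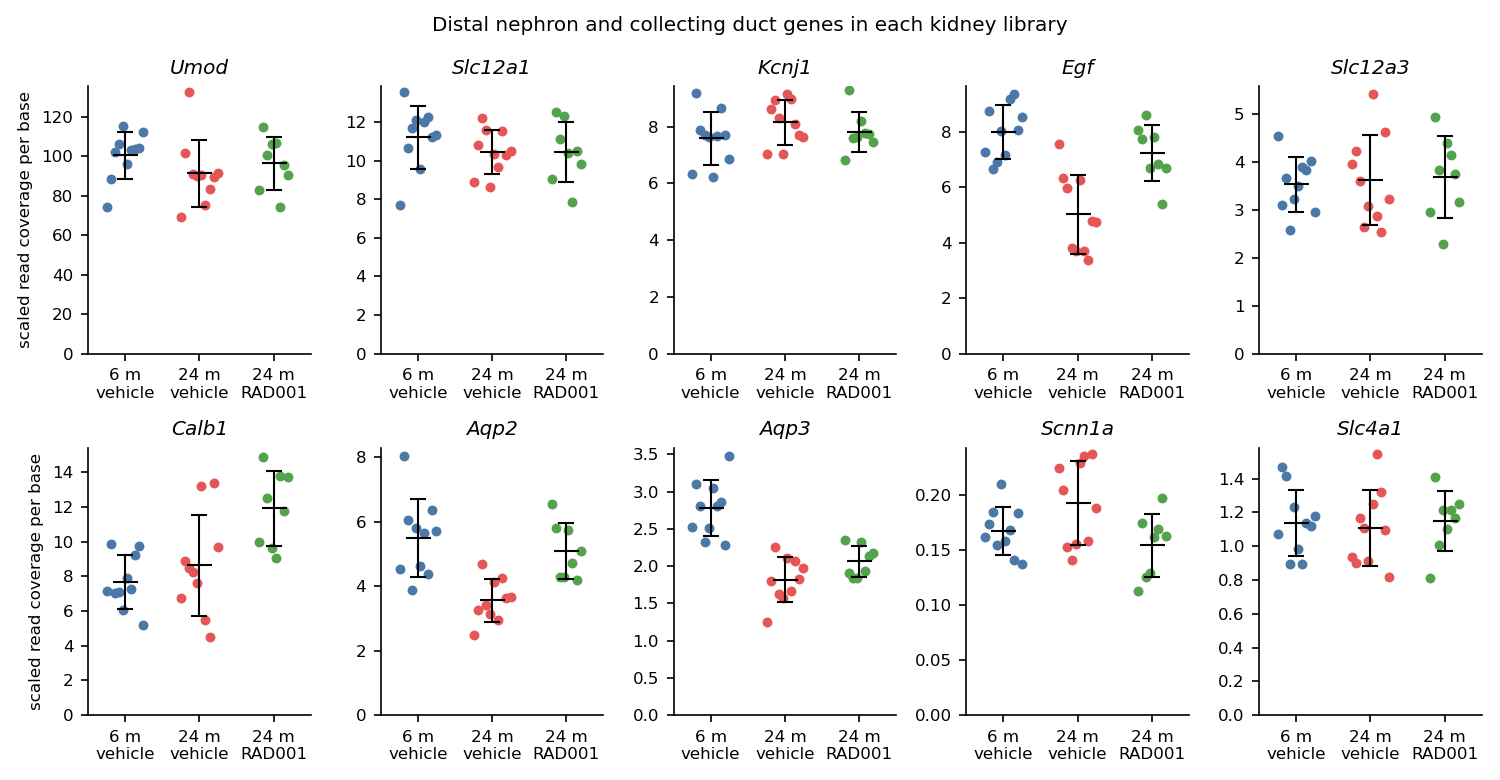
Scaled read coverage per base of each of the 10 genes in each kidney library, with the mean and SD of each group (10 young, 10 aged and 8 treated libraries, vertical axes from 0). Aqp3 is the gene whose young and aged points do not overlap, and Calb1 is highest in the treated libraries.

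The sequences before the transcription starts of the 3 genes that fell with age are shown so that a reader can see the promoters involved. RefSeq (GRCr8) gave windows for 7 of the 10 genes, running from 250 bases before to 50 bases after each start. Printed are the 250 bases before the start, 5′ to 3′ on the strand of the gene: Aqp2 at chr7:132590036-132590285 on the plus strand, Aqp3 at chr5:61040684-61040933 on the minus strand and Egf at chr2:220976298-220976547 on the minus strand. Capitals mark matches, on either strand, to 4 short motifs searched in the whole windows: the cAMP response element TGACGTCA, its TGACG part, GTTAAT from the HNF1 site and AGAACA from the steroid receptor element.
Aqp2: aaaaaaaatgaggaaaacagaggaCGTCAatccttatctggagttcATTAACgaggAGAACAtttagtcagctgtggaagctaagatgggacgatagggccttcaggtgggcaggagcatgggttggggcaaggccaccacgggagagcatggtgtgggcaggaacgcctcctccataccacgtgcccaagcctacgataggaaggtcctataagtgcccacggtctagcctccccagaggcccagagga
Aqp3: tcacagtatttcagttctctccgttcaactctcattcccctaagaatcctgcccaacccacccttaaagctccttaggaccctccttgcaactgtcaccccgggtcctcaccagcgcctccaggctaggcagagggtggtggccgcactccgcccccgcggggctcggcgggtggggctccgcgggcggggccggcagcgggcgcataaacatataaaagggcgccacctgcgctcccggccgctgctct
Egf: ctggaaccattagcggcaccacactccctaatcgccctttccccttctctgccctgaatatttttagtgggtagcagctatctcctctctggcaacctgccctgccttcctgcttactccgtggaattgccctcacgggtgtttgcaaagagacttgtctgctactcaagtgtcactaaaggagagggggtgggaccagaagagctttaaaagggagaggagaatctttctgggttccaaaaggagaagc
The Aqp2 window held TGACG on the minus strand at positions -226 to -222 from the start, GTTAAT on the minus strand at -204 to -199 and AGAACA on the plus strand at -194 to -189. Among 33365 RefSeq windows of the same length, 21.2% held TGACG, 7.46% GTTAAT, 20.6% AGAACA and 1.83% the full TGACGTCA, which contains TGACG. None of these letters occurred in the Aqp3 or Egf window, which says nothing about the factors that bind there.

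Umod encodes uromodulin, the protein that the thick ascending limb secretes in bulk into urine. In the rn5 build of the deposited tables its locus is on chromosome 1 (196127939 to 196141280, minus strand). Its level was 74.1, 103 and 115 (lowest, median and highest) in young kidney, 69.0, 90.2 and 132 in aged and 74.0, 98.1 and 115 in treated kidney. The 3 groups overlapped almost fully, and Umod was by far the most abundant of the 10 genes in each. The change was -0.15 log2 with age (SE 0.0943, 95% interval -0.34 to 0.05, limma adjusted p = 0.215) and 0.09 with RAD001 (95% interval -0.12 to 0.29, adjusted p = 0.527). Without aged replicate 3, which held the highest Umod level of all, the age change was -0.21 and passed the test (adjusted p = 0.0448).

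Slc12a1 and Kcnj1 encode the apical sodium-potassium-chloride cotransporter of the thick ascending limb and the potassium channel ROMK that returns potassium to its lumen. Slc12a1 (chromosome 3, 123945414 to 124022078, plus strand) stood at 7.72, 11.5 and 13.6 in young, 8.65, 10.4 and 12.2 in aged and 7.86, 10.5 and 12.5 in treated kidney. Kcnj1 (chromosome 8, 33560607 to 33564733, plus strand) stood at 6.22, 7.69 and 9.19 in young, 7.03, 8.19 and 9.15 in aged and 6.83, 7.70 and 9.28 in treated kidney. All 3 groups overlapped for both genes. The age change was -0.09 log2 for Slc12a1 (95% interval -0.27 to 0.08, adjusted p = 0.405) and 0.11 for Kcnj1 (95% interval -0.03 to 0.24, adjusted p = 0.196). With RAD001 it was -0.01 for Slc12a1 (95% interval -0.20 to 0.18, adjusted p = 0.961), a sign that changed with the fit, and -0.06 for Kcnj1 (95% interval -0.20 to 0.08, adjusted p = 0.534). Kcnj1 passed the test for a rise with age when upper-quartile factors scaled the libraries (0.17, adjusted p = 0.0358) or when only loci of at least 1 were tested (0.20, adjusted p = 0.0134).

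Egf encodes the precursor of epidermal growth factor, which in kidney is made by the thick ascending limb and distal convoluted tubule and released into urine. Its locus is on chromosome 2 (74746756 to 74870998, plus strand in rn5). The level was 6.68, 8.05 and 9.36 in young, 3.38, 4.76 and 7.56 in aged and 5.40, 7.30 and 8.61 in treated kidney. Of the 10 aged libraries 9 lay below every young one, while 4 of the 8 treated libraries lay above every aged one and all 8 above the aged median. The young mean was 7.99 ± 0.960 (SD, n = 10) and the aged mean, at 5.03 ± 1.43 (SD, n = 10), fell by 37.1%, a change of -0.70 log2 (SE 0.119, limma adjusted p = 2.84e-05). It was 43.9% higher in treated than in aged kidney, at 7.23 ± 1.02 (SD, n = 8), a change of 0.55 log2 (SE 0.126, adjusted p = 0.00121). Treated against young kidney gave -0.15 (95% interval -0.40 to 0.11, adjusted p = 0.411), which does not show that the levels were equal. With the 7SL level as a covariate the RAD001 change was 0.44 and no longer passed the test (adjusted p = 0.229). Less RNA per cell and fewer cells of a segment cannot be told apart in these whole-tissue libraries, for Egf or for any gene below.

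Slc12a3 and Calb1 mark the distal convoluted tubule: the first encodes the thiazide-sensitive sodium-chloride cotransporter, the second the calcium-binding protein calbindin-D28k, which also occurs in the connecting tubule. Slc12a3 (chromosome 19, 11084192 to 11122657, minus strand) stood at 2.58, 3.58 and 4.55 in young, 2.53, 3.42 and 5.43 in aged and 2.28, 3.79 and 4.94 in treated kidney. Its groups overlapped throughout, with changes of 0.01 log2 with age (95% interval -0.26 to 0.28, adjusted p = 0.946) and 0.03 with RAD001 (95% interval -0.26 to 0.31, adjusted p = 0.898), both of which changed sign between fits. Calb1 (chromosome 5, 34217929 to 34242324, plus strand) stood at 5.18, 7.19 and 9.86 in young, 4.52, 8.38 and 13.4 in aged and 9.03, 12.1 and 14.9 in treated kidney. Aged libraries reached below every young and treated library and overlapped both groups. Of the 8 treated libraries 3 lay above every aged one, 6 lay above every young one and all 8 lay above the aged median. The mean was 38.1% higher in treated (11.9 ± 2.18, SD, n = 8) than in aged kidney (8.62 ± 2.91, SD, n = 10), a change of 0.51 log2 (SE 0.164, limma adjusted p = 0.0152). Against young kidney (7.65 ± 1.55, SD, n = 10) it was 55.7% higher, 0.64 log2 (SE 0.164, adjusted p = 0.00471), while the age change of 0.12 did not pass (95% interval -0.19 to 0.44, adjusted p = 0.546). Calb1 was the 1 gene of the 10 called higher in treated kidney than in both vehicle groups. The rise over young kidney did not pass without the 5 libraries with muscle or hepatocyte transcripts, where it was 0.54 (SE 0.195, adjusted p = 0.0556), and the rise over aged kidney did not pass with the 7SL covariate, where it was 0.72 (adjusted p = 0.120).

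**Figure D2:**
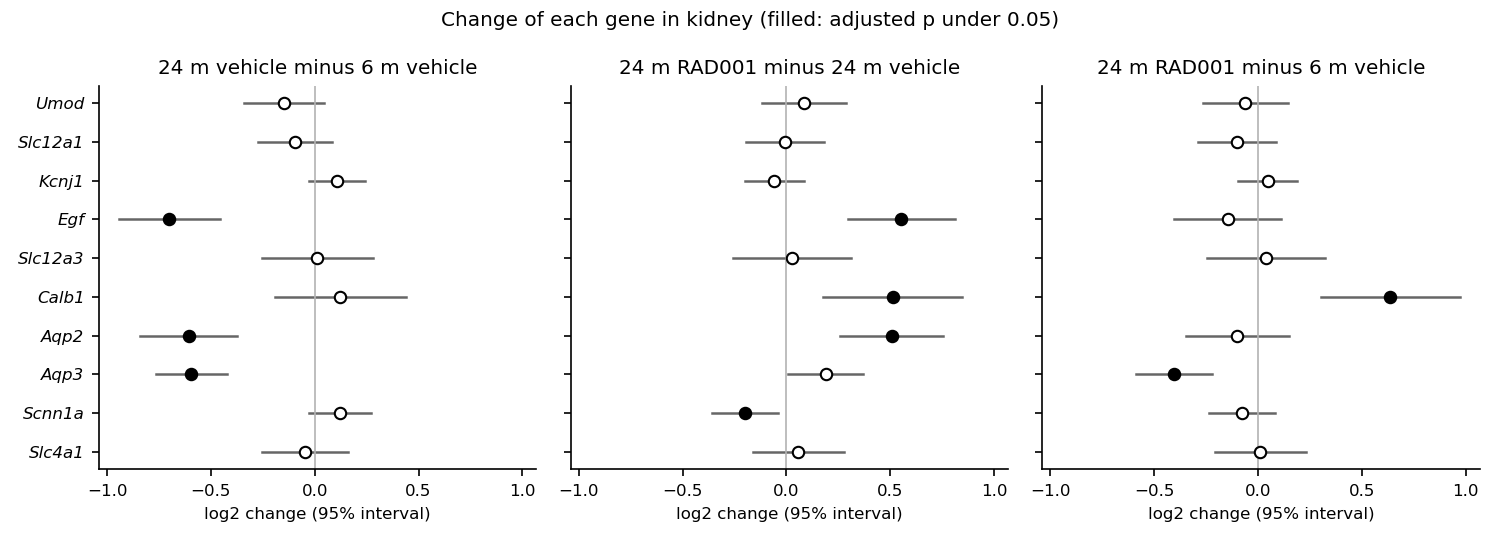
Log2 change of each gene in kidney with its 95% interval in the 3 comparisons, filled where the adjusted p was under 0.05. Egf, Aqp2 and Aqp3 lie between -0.70 and -0.59 with age, and Calb1 lies at 0.64 in treated against young kidney.

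The water channels Aqp2 and Aqp3 sit in principal cells: AQP2 is inserted into the apical membrane under vasopressin, and AQP3 lets water leave on the basolateral side. The deposited rn5 table places Aqp2 on chromosome X (115742311 to 115747347, plus strand), while the GRCr8 window printed above is on chromosome 7. Its level was 3.87, 5.67 and 8.02 in young, 2.47, 3.52 and 4.69 in aged and 4.20, 4.90 and 6.55 in treated kidney. Of the 10 aged libraries 7 lay below every young one, and 5 of 8 treated libraries lay above every aged one. The young mean was 5.50 ± 1.21 (SD, n = 10), the aged mean of 3.56 ± 0.664 (SD, n = 10) fell by 35.3%, and the treated mean of 5.08 ± 0.868 (SD, n = 8) was 42.8% above the aged one. These were changes of -0.61 log2 (SE 0.115, limma adjusted p = 0.000105) and 0.51 log2 (SE 0.122, adjusted p = 0.00194). Treated against young kidney gave -0.10 (95% interval -0.35 to 0.15, adjusted p = 0.585). With the 7SL covariate the RAD001 change was 0.34 and did not pass (adjusted p = 0.355).

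Aqp3 (chromosome 5, 61954829 to 61960347, minus strand) stood at 2.28, 2.81 and 3.48 in young, 1.24, 1.82 and 2.26 in aged and 1.84, 2.03 and 2.36 in treated kidney. The highest aged library was below the lowest young one; the groups overlapped for the other genes in all 3 comparisons. Among all tested loci the share without overlap was 3.45% with age, 3.25% with RAD001 and 4.68% between treated and young kidney. Its mean of 2.78 ± 0.374 in young kidney (SD, n = 10) fell by 34.7% to 1.81 ± 0.303 in aged kidney (SD, n = 10), a change of -0.59 log2 (SE 0.0837, limma adjusted p = 3.09e-06). In treated kidney it was 2.06 ± 0.209 (SD, n = 8), 13.8% above the aged mean, and relative to the young mean it fell by 25.6%. The RAD001 change of 0.19 did not pass (95% interval 0.01 to 0.37, adjusted p = 0.0930), except when aged replicate 3 was left out (0.22, adjusted p = 0.0400). Treated against young kidney gave -0.40 (SE 0.0888, adjusted p = 0.00114), with 6 of 8 treated libraries below every young one. Aqp2 and Aqp3 thus had age changes of like size, and Aqp2 passed the RAD001 test where Aqp3 did not; the difference between the genes was not tested.

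Scnn1a encodes the alpha subunit of the epithelial sodium channel, the site of aldosterone-driven sodium uptake in principal cells. It was the least abundant of the 10 genes (chromosome 4, 224853954 to 224877154, plus strand), at 0.138, 0.165 and 0.211 in young, 0.141, 0.197 and 0.237 in aged and 0.113, 0.163 and 0.197 in treated kidney. The ranges overlapped, with 7 of 8 treated libraries below the aged median and 3 of 8 below every aged library. The RAD001 change was -0.20 log2 (SE 0.0772, limma adjusted p = 0.0418), and the age change of 0.12 did not pass (95% interval -0.03 to 0.27, adjusted p = 0.174). At this level the added 0.1 sets the size of the change: it was -0.30 with 0.01 added and -0.05 with 1 added. The call did not hold with no filter on low values (adjusted p = 0.0634), with only the aged and treated groups in the fit (0.0764), with the 7SL covariate (0.454) or without the 5 libraries with muscle or hepatocyte transcripts (0.119). It was also lost on leaving out any of aged replicates 1, 2, 6, 7, 9 and 10 or treated replicates 1, 3, 5 and 6, with adjusted p of up to 0.0989.

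Slc4a1 encodes the anion exchanger AE1, which carries bicarbonate across the basolateral membrane of acid-secreting intercalated cells and is also the band 3 protein of red cells. Its locus is on chromosome 10 (90084738 to 90101181, minus strand). The level was 0.893, 1.13 and 1.47 in young, 0.818, 1.10 and 1.55 in aged and 0.813, 1.19 and 1.41 in treated kidney. All groups overlapped, and the changes were -0.05 log2 with age (95% interval -0.25 to 0.16, adjusted p = 0.738) and 0.06 with RAD001 (95% interval -0.16 to 0.28, adjusted p = 0.705), with signs that changed between fits. Of the 5 erythroid genes tested 4 rose with RAD001, where 18.3% of all tested loci did. The summed level of the 9 erythroid genes with a locus, of which Rhag was at 0 in 18 of 28 kidney libraries, ran from 78.2 to 134 in young, 47.4 to 151 in aged and 92.5 to 172 in treated kidney. Across the 28 kidney libraries Slc4a1 did not follow that sum once group means were taken off (Pearson r = 0.07, permutation adjusted p = 0.959), with r of -0.13, -0.08 and 0.66 within young, aged and treated libraries. With the erythroid level as a covariate its RAD001 change was 0.04 (adjusted p = 0.836).

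The order of the genes by median level was led by Umod in every group, with no library of another gene reaching it. In young kidney Slc12a1, Egf, Kcnj1, Calb1, Aqp2, Slc12a3 and Aqp3 followed, each overlapping the next, and then Slc4a1 and Scnn1a, each below its neighbour in every library. In aged kidney Egf ranked after Slc12a1, Calb1 and Kcnj1, and the ranges of Slc12a3 and Aqp3 no longer overlapped. In treated kidney Calb1 ranked directly after Umod, and its range overlapped that of Slc12a1.

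These genes were chosen as kidney genes, and in liver and gastrocnemius most were at or near 0. Aqp3 was 0 in all 28 liver libraries and in 25 of 28 gastrocnemius libraries, and Aqp2 was 0 in 27 liver and 26 gastrocnemius libraries. Umod was 0 in 22 liver libraries and reached 0.0313 there and 0.153 in gastrocnemius. The levels of Slc12a1, Slc12a3, Calb1 and Kcnj1 did not exceed 0.0180 in either tissue. Scnn1a and Slc4a1 had medians of 0.0248 and 0.0189 in liver. Egf alone passed the filter in both tissues, at 0.0642, 0.158 and 0.284 in liver and 0.123, 0.165 and 0.240 in gastrocnemius (lowest, median and highest of 28), against 3.38, 6.88 and 9.36 in kidney.

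**Figure D3:**
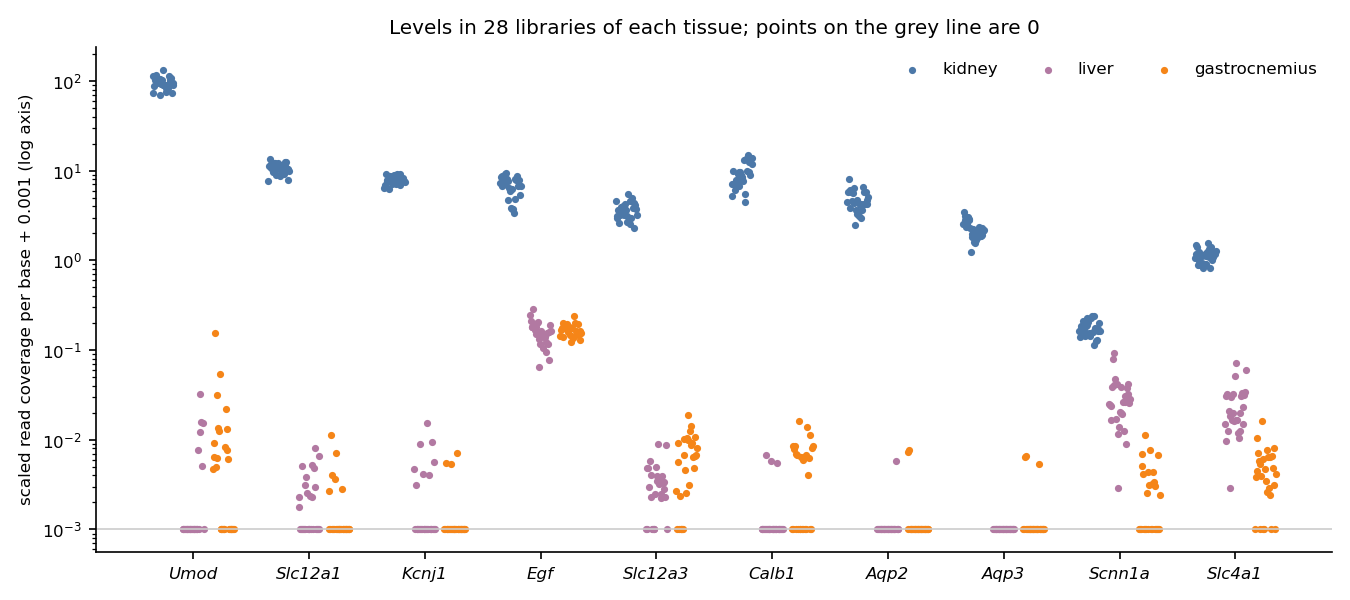
Scaled read coverage per base, plus 0.001 on a log axis, of each gene in the 28 libraries of kidney, liver and gastrocnemius. The kidney points lie above those of the other tissues for all 10 genes, and points on the grey line are 0.

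In liver Egf fell with age by 0.34 log2 (SE 0.0959, limma adjusted p = 0.0129), where 16.6% of liver loci were called, and its RAD001 change was -0.01 (adjusted p = 0.962, 15.7% called). In gastrocnemius the age change was -0.04 (adjusted p = 0.713, 35.4% of loci called) and the RAD001 change -0.05 (adjusted p = 0.732, 3.37% called). In joint fits of kidney with each other tissue, the RAD001 change of Egf was higher in kidney than in liver by 0.56 (SE 0.165, limma interaction adjusted p = 0.00840, 27.0% of 8576 loci called) and than in gastrocnemius by 0.60 (SE 0.144, adjusted p = 0.00136, 28.3% of 8342 loci called). The age change in kidney minus that in gastrocnemius was -0.66 (SE 0.136, adjusted p = 0.000106, 34.6% called). Kidney minus liver gave -0.36 with age and did not pass (SE 0.155, adjusted p = 0.0879, 24.2% called). Egf in liver and muscle was close to the added 0.1, which makes log2 changes there smaller than changes of the level itself.

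Whether kidneys high in one gene were high in another was asked across the 28 kidney libraries with group means taken off. Of 45 pairs, 5 had an adjusted permutation p under 0.05 for Pearson r, and all 5 were positive. Umod went with Slc12a1 (r = 0.71, adjusted p = 0.0027; Spearman rho = 0.63, adjusted p = 0.0248), and without the 2 libraries farthest from the median r was 0.62. Within young, aged and treated libraries it was 0.63, 0.65 and 0.95. Slc12a1 also went with Kcnj1 (r = 0.68, adjusted p = 0.00383; rho = 0.58, adjusted p = 0.0443; 0.71 without 2 libraries). Umod and Kcnj1 did not pass as a pair (r = 0.39, permutation adjusted p = 0.234; rho = 0.39, adjusted p = 0.245). All 3 genes are expressed in the thick ascending limb.

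Aqp2 went with Aqp3 (permutation r = 0.62, adjusted p = 0.0131), although rho did not pass (0.55, adjusted p = 0.0611), and r was 0.28, 0.95 and 0.63 within the young, aged and treated groups. Slc12a3 went with Calb1 (r = 0.59, adjusted p = 0.0161; rho = 0.54, adjusted p = 0.0611), with 0.32, 0.78 and 0.47 within groups. Kcnj1 went with Slc4a1 (r = 0.58, adjusted p = 0.0161; rho = 0.51, adjusted p = 0.0729), with 0.46, 0.64 and 0.76 within groups. Without the 2 farthest libraries r was 0.53, 0.51 and 0.52 for these pairs. All 28 libraries share the scaling and the dissected tissue, and how much cortex and medulla each piece held was not measured apart from these genes.

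**Figure D4:**
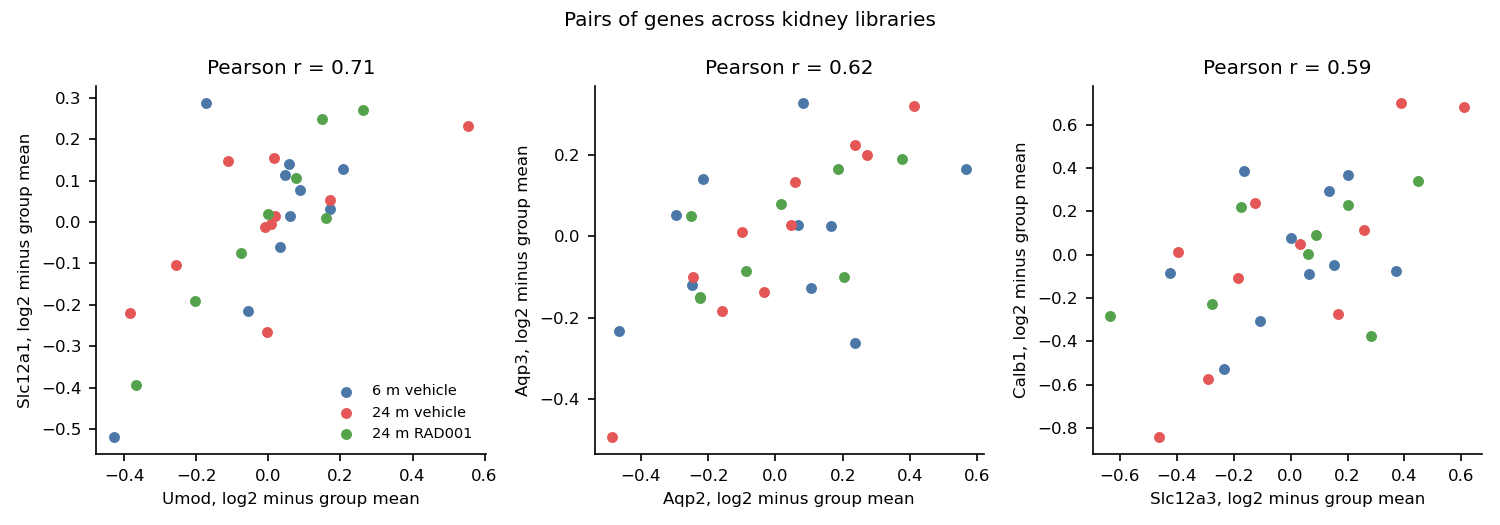
Log2 levels minus the group mean of Umod and Slc12a1, Aqp2 and Aqp3, and Slc12a3 and Calb1, 1 point per kidney library, coloured by group. Pearson r over the 28 libraries is 0.71, 0.62 and 0.59.

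Lists of other kidney cell states moved with age and RAD001 beside these genes. The summed level of 6 tubular injury genes was 15.5 to 32.8 in young, 41.3 to 406 in aged and 34.3 to 102 in treated kidney. The 5 tested all rose with age and fell with RAD001. Most of that sum was Spp1 (medians 20.6, 144 and 39.3, beside sum medians of 25.2, 157 and 44.7 in the 3 groups). A relation with this sum is thus largely one with Spp1. The summed level of 12 proximal tubule genes was 573 to 819, 259 to 588 and 427 to 562, with 10 of 12 lower with age and 8 of 12 higher with RAD001. All 7 macrophage and T cell genes rose with age, and 5 of the 7 fell with RAD001. Their sums were 17.8 to 27.4, 27.5 to 43.8 and 33.6 to 41.0 in the 3 groups. Most of that sum was Cd74 (medians 19.8, 32.2 and 35.5, beside sum medians of 21.8, 35.4 and 38.7). The Cd74 median was higher in treated than in aged kidney, so the sum does not show the fall of those 5 genes. For comparison, the calls over all loci were 20.8% higher and 22.2% lower with age. With RAD001 these shares were 18.3% and 19.1%. The part of these lists in the changes of Aqp2, Aqp3, Egf and Calb1 was not tested. Of 40 relations between a gene and a list across kidney libraries, 1 passed: Slc12a3 was lower where the injury sum was higher (r = -0.64, permutation adjusted p = 0.0384; rho = -0.64, adjusted p = 0.0404; -0.72 without 2 libraries), with -0.17, -0.73 and -0.83 within young, aged and treated groups. Egf had r = -0.65 with the injury sum (adjusted p = 0.0696) and 0.69 with the proximal tubule sum (adjusted p = 0.0582), which did not pass. Within aged kidney alone these were -0.78 and 0.89, and within young kidney -0.30 and -0.03.

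The loci that varied most like each gene across the 28 kidney libraries, group means taken off, were read from 4245 loci with a kidney mean of at least 1 and are given without a test. For Umod they were Ppp1r1b, P4hb and Cldn10 (r = 0.86, 0.83 and 0.83), and for Slc12a1 Pde1a, Inpp1 and Ocln (0.90, 0.75 and 0.73). Kcnj1 was followed by Tmem50b, Ndrg2 and Stk39 (0.80, 0.77 and 0.76), and Egf by Adhfe1, Dlst and Dao (0.82, 0.82 and 0.81). Slc12a3 had Sema3g, Slc22a8 and Acss1 (0.81, 0.81 and 0.80) and Calb1 had Slc8a1, Tbc1d14 and Slc26a4 (0.84, 0.74 and 0.73). Aqp2 had Fxyd4, Isyna1 and Galnt18 (0.76, 0.71 and 0.62), while Aqp3 had Drg1, Tcf20 and Ammecr1l (0.65, 0.63 and 0.61). Scnn1a had Atp6v1b1, Vegfa and Rtn3 (0.66, 0.63 and 0.62), and Slc4a1 had Rhcg, Atp6v0d2 and Ckmt1b (0.74, 0.73 and 0.70). Among these, Cldn10, Stk39, Slc8a1, Slc26a4, Fxyd4, Atp6v1b1, Rhcg and Atp6v0d2 are also on the list of distal segment genes described next.

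A wider list of 74 genes chosen for the same segments was read from the same fit. Of these, 71 had a locus and 66 were tested. Whether each is expressed only in the segment it is listed for was not tested in these whole-tissue libraries. With age 13 rose and 9 fell, with RAD001 10 rose and 9 fell, and between treated and young kidney 6 were higher and 5 lower, so that the list was called less often than all loci. The median change of the tested list genes was 0.00 with age, 0.03 with RAD001 and 0.02 in treated against young kidney, beside 0.00, 0.00 and 0.01 over all loci. The split depended on scaling: with upper-quartile factors 16 rose and 8 fell with age and 7 rose and 13 fell with RAD001, and in the values as deposited it was 14 and 7, and 8 and 11. Over all called loci the share that rose went from 48.4% to 64.6% and 62.8% with age, and from 49.0% to 33.6% and 39.2% with RAD001, in the same 3 scalings.

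Among 14 tested thick ascending limb genes 4 rose and 3 fell with age, and 5 rose and 1 fell with RAD001. Over all tested loci 20.8% rose and 22.2% fell with age, and 18.3% rose and 19.1% fell with RAD001. Cldn10 is a claudin that forms sodium-permeable tight junctions in the thick ascending limb. Its level was 6.93, 8.87 and 9.43 in young, 5.19, 6.59 and 7.67 in aged and 7.83, 8.69 and 9.50 in treated kidney. Treated and aged libraries did not overlap, as for 3.25% of all tested loci. Cldn10 changed by -0.40 log2 with age (SE 0.0598, limma adjusted p = 6.90e-06) and by 0.41 with RAD001 (SE 0.0634, adjusted p = 2.10e-05). Cldn19, a claudin of magnesium and calcium reabsorption, moved the other way, by 0.24 with age (adjusted p = 0.0163) and -0.60 with RAD001 (adjusted p = 1.07e-05). Its treated and aged libraries did not overlap either (highest treated 0.540, lowest aged 0.588). Casr, the calcium-sensing receptor, fell by 0.34 with age (adjusted p = 0.000548), and Mal, a membrane trafficking protein, rose by 0.32 (adjusted p = 0.00744). In treated against young kidney 1 rose and 1 fell, Mal (0.30) and Cldn19 (-0.35).

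Of 13 tested genes of the distal convoluted tubule 2 rose and 1 fell with age, and 1 rose and 3 fell with RAD001. The shares over all tested loci were 20.8% higher and 22.2% lower with age, and 18.3% higher and 19.1% lower with RAD001. Trpv5, the apical calcium channel, stood at 0.0686, 0.119 and 0.139 in young, 0.138, 0.220 and 1.05 in aged and 0.105, 0.142 and 0.164 in treated kidney, near the added 0.1. It rose by 0.75 log2 with age (SE 0.183, limma adjusted p = 0.00146) and fell by 0.59 with RAD001 (SE 0.194, adjusted p = 0.0177). The kinase gene Wnk4 rose by 0.28 with age (adjusted p = 0.00392), and the basolateral potassium channel gene Kcnj16 rose by 0.33 with RAD001 (adjusted p = 0.00138). Fxyd2, the gamma subunit of the sodium pump, fell by 0.31 with age (adjusted p = 0.00541) and by a further 0.29 with RAD001 (adjusted p = 0.0165), to -0.59 against young kidney (adjusted p = 2.27e-05). Its medians were 124, 94.3 and 75.0 in young, aged and treated kidney. Against young kidney the kinase gene Stk39 (0.23) and Tmem52b (0.33) were higher.

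Of 15 tested principal cell genes 2 rose and 2 fell with age, and 1 fell with RAD001. Beside this, 20.8% of all tested loci rose and 22.2% fell with age, and 18.3% rose and 19.1% fell with RAD001. Prss8, the protease prostasin that activates the sodium channel, stood at 5.77, 6.81 and 7.72 in young, 3.68, 4.87 and 6.16 in aged and 4.54, 4.97 and 5.96 in treated kidney. It fell by 0.45 log2 with age (SE 0.0814, limma adjusted p = 5.95e-05) and was lower in treated than young kidney by 0.42 (adjusted p = 0.000598). The sialyltransferase gene St6gal1 fell by 0.45 with age (adjusted p = 0.00220), and the keratin gene Krt18 rose by 0.54 (adjusted p = 0.00777). The transcription factor gene Gata3 rose by 0.23 with age (adjusted p = 0.0431) and fell by 0.32 with RAD001 (adjusted p = 0.0101), at medians of 0.0948, 0.133 and 0.0808, again near the added 0.1. Nr3c2, the mineralocorticoid receptor, was higher in treated than young kidney by 0.18 (adjusted p = 0.0251).

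Of 15 tested intercalated cell genes 1 rose and 2 fell with age, and 4 rose and 1 fell with RAD001. Calls over all tested loci were 20.8% higher and 22.2% lower with age, and 18.3% higher and 19.1% lower with RAD001. The carbonic anhydrase gene Car12 fell by 0.21 log2 with age (limma adjusted p = 0.00495) and rose by 0.25 with RAD001 (adjusted p = 0.00251). Atp6v0a4, a subunit of the proton pump, fell by 0.23 (adjusted p = 0.00634) and rose by 0.27 (adjusted p = 0.00346). Foxi1, the transcription factor that specifies these cells, rose by 0.25 with age (adjusted p = 0.00169) and fell by 0.29 with RAD001 (adjusted p = 0.00108), at medians of 0.235, 0.276 and 0.209. The highest treated library, at 0.2455, lay just below the lowest aged one, at 0.2487. In treated against young kidney the carbonic anhydrase gene Car2 was higher by 0.14 and the proton pump gene Atp6v1b1 was lower at -0.20.

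Of 7 genes listed for the osmolytes of the renal medulla 4 rose and none fell with age, and 3 fell with RAD001. Over all tested loci 20.8% rose with age and 19.1% fell with RAD001. Those called with age were S100a4, Hspa1b, Slc5a3 and Nfat5, while Akr1b1, Slc6a6 and Slc6a12 were not called. S100a4, a calcium-binding protein that stromal and immune cells also express, stood at 1.95 ± 0.314 in young (SD, n = 10), 4.27 ± 1.57 in aged (SD, n = 10) and 2.97 ± 1.48 in treated kidney (SD, n = 8). It rose by 1.03 log2 with age (SE 0.189, limma adjusted p = 7.21e-05) and fell by 0.56 with RAD001 (SE 0.201, adjusted p = 0.0298). Its young and aged libraries did not overlap, as for 3.45% of all tested loci. Hspa1b, a heat shock protein, rose by 0.42 with age (adjusted p = 0.000980) and was 0.34 above young in treated kidney (adjusted p = 0.0162). Nfat5, the transcription factor of the response to high salt, fell by 0.24 with RAD001 (adjusted p = 0.0358). Slc6a6, the remaining osmolyte gene called with RAD001, fell by 0.23 (adjusted p = 0.0444).

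**Figure D5:**
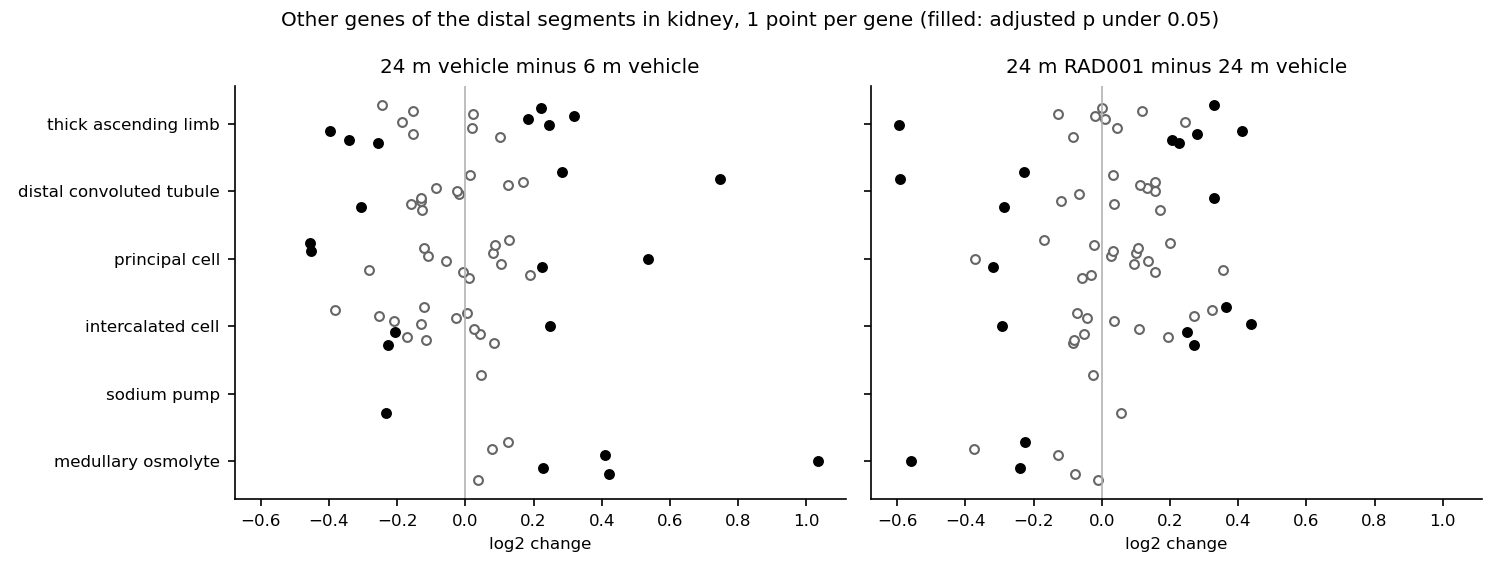
Log2 change with age (left) and with RAD001 (right) of the 66 tested genes of the wider list, 1 point per gene by segment, filled where the adjusted p was under 0.05. Called genes that rose and called genes that fell occur side by side in the lists with more than 2 genes, with these exceptions. The 1 principal cell gene called with RAD001 fell. Among the 7 osmolyte genes, those called rose with age and fell with RAD001.

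With the 7SL level as a covariate 0 of the 10 genes and 3 of the 66 list genes passed for RAD001, beside 4.39% of all loci, while the 3 age calls of the 10 genes held. The RAD001 changes of the 4 called genes kept their direction, and that of Calb1 was larger with a wider error, at 0.72 (SE 0.262) against 0.51 (SE 0.164). Of the list genes named above for RAD001, Cldn19 (-0.51, limma adjusted p = 0.0347) and Fxyd2 (-0.60, adjusted p = 0.00551) still passed. Cldn10 (0.29, adjusted p = 0.0884), Kcnj16 (0.26, 0.229), Gata3 (-0.34, 0.224), Trpv5 (-0.42, 0.498) and Atp6v0a4 (0.18, 0.405) did not pass. Neither did Foxi1 (-0.15, 0.428), Car12 (0.09, 0.644), S100a4 (-0.14, 0.854), Nfat5 (-0.02, 0.944) and Slc6a6 (-0.33, 0.202). In treated against young kidney Mal, Stk39, Fxyd2 and Prss8 still passed, and Cldn19, Tmem52b, Nr3c2, Atp6v1b1, Car2 and Hspa1b did not. With age Gata3 (0.23, adjusted p = 0.0506) and Nfat5 (0.19, 0.0598) were lost.

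Without the 5 libraries with muscle or hepatocyte transcripts, 9 of the 19 list calls with RAD001 and 4 of the 11 in treated against young kidney still passed, and none of the called genes changed direction. This fit left out 2 of 10 young and 3 of 8 treated libraries, and fewer libraries make any locus harder to call. The reason for the lost calls was not tested. Among the named genes the RAD001 calls of Trpv5 (-0.61, limma adjusted p = 0.0683), Atp6v0a4 (0.21, 0.0719), S100a4 (-0.23, 0.443) and Nfat5 (-0.15, 0.261) were lost. Of the osmolyte genes Slc6a6 still passed for RAD001 (-0.32, adjusted p = 0.0165). In treated against young kidney Cldn19 (-0.31, adjusted p = 0.0537), Stk39 (0.24, 0.0638), Tmem52b (0.28, 0.142), Nr3c2 (0.18, 0.0779), Atp6v1b1 (-0.17, 0.218) and Car2 (0.17, 0.0634) were lost. With age Gata3 (0.17, adjusted p = 0.171) and Nfat5 (0.21, 0.0517) were lost.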

How the data were processed

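Each of kidney, liver and gastrocnemius had 28 RNA-seq libraries. The deposited values are a signal: mean read coverage per base of each locus times a library factor, as read from the values. Alignment was with STAR 2.4.5a to rn5, per the submitters' processing notes, and no source used here names the summarising tool. Among loci spanning under 150 bp, 100% of values, multiplied by length, were whole multiples of the step size of their library (tolerance 2e-06 of the multiple plus 1e-06), and the inverse step gave relative depth. Within each tissue, loci at 0.1 or more in at least 8 libraries were kept and libraries were scaled by a 30% trimmed mean of log ratios. Group means of log2(scaled value + 0.1) were fitted with limma 3.58.1 (lmFit, eBayes with trend; R 4.3.3; 25 residual degrees of freedom from the groups), with Benjamini-Hochberg adjustment over all loci of the tissue. The 2-tissue fits held 56 libraries. Scripts were checked on simulated data. Correlations were permuted within groups (100000 resamples, two-sided). Named are all 10 genes, per segment list and comparison the 2 called genes of smallest p in each direction, and the 3 loci most correlated with each gene. Some genes that this rule names are not reported here. The genes, lists and rules were chosen with earlier results of these data known. Libraries sharing a replicate number in different kidney groups did not deviate together (median correlations -0.06, -0.01 and 0.08), so no block was fitted in the comparisons reported. No 2 libraries were identical. Other scalings, filters, pseudocounts, weights, groups in the fit, thresholds, covariates and left-out libraries were tried. The alternative without libraries holding muscle or hepatocyte transcripts, the comparison of Egf between tissues with and without a block, the alternatives for single genes of the wider list and the gene-list relations were added after seeing the data.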

Additional observations from a re-analysis of the deposited data

Results flagged for a closer look

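Umod in the aged group had 1 library far above the others: replicate 3 stood at 132.3, the next at 101.4 and the lowest at 69.0, a gap of 0.489 of the range and past the limit of Dixon's test. Of the 30 groups of kidney values examined in this way this was the one that passed, and chance alone passes about 1 in 20. The Egf change differed between tissues in 3 of 4 comparisons. With RAD001 it was 0.56 higher on the log2 scale in kidney than in liver and 0.60 higher in kidney than in gastrocnemius, and with age the kidney change minus the gastrocnemius change was -0.66.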

How the results depend on the processing

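Of the 10 genes, the age falls of Aqp2, Aqp3 and Egf and the lower Aqp3 in treated than young kidney passed under every alternative run, except that the Aqp3 difference from young kidney missed a 1.5-fold minimum. Apart from the fits without 1 library, their changes were -0.63 to -0.50, -0.62 to -0.43, -0.74 to -0.61 and -0.47 to -0.30. Counts of called genes moved by over 1.5 times as follows. With loci of at least 1 the wider list gave 13 with age and 11 with RAD001. With only the groups compared, or with quality weights, it gave 18 in treated against young kidney. With the 7SL covariate the counts were 0 of the 10 genes and 3 of the wider list with RAD001, and 7 of the wider list in treated against young. At adjusted p under 0.01 they were 2 and 8 with RAD001 and 3 of the wider list in treated against young. With a 1.5-fold minimum, the wider list gave 2 with age, 2 with RAD001 and 1 in treated against young, and the 10 genes 0 with RAD001 and 1 in treated against young. Without the 5 libraries with muscle or hepatocyte transcripts the wider list gave 10 with RAD001 and 6 in treated against young, and the 10 genes 1 in treated against young; the cause was not tested. Leaving out 1 library gave 3 to 4, 3 to 5 and 2 to 2 called genes of the 10, and 19 to 24, 14 to 24 and 8 to 14 of the wider list (age, RAD001, treated against young). With the replicate block the 10 genes gave 3, 4 and 2 and the wider list 22, 15 and 11, and the numbers did not pair the kidney groups. Kidney and liver libraries of the same number had median correlations of 0.16, 0.14 and 0.18 in the young, aged and treated groups, and the labels do not say that they share a rat. With that number as a block the Egf differences between kidney and liver had adjusted p = 0.0965 (age) and 0.0127 (RAD001), and between kidney and gastrocnemius 0.000263 and 0.00219, which changed no call. Changes with reversed sign were all of genes not called. For Slc12a3 with RAD001 they were -0.0243 (upper quartile), -0.00672 (as deposited), -0.0452 (at least 1), -0.0469 (block), -0.165 (7SL) and -0.0892 (without the 5 libraries), with age -0.00936 (no filter) and -0.0283 (without the 5), and in treated against young -0.0339 (block), -0.122 (7SL) and -0.118 (without the 5). For Slc12a1 with RAD001 they were 0.0104 (no filter), 0.0106 (block), 0.0245 (weights), 0.0253 (7SL) and 0.0475 (without the 5). For Slc4a1 they were 0.0126 (upper quartile), 0.00773 (as deposited) and 0.0369 (at least 1) with age, -0.0107 (at least 1) with RAD001 and -0.0254 (block) in treated against young. Umod gave -0.212 with RAD001 (7SL) and 0.0117 in treated against young (without the 5). Leaving out 1 library gave -0.0459 to 0.0491 for Slc12a1 with RAD001, -0.0546 to 0.0654, -0.0377 to 0.116 and -0.0244 to 0.13 for Slc12a3 with age, with RAD001 and in treated against young, and -0.0302 to 0.0734 for Slc4a1 in treated against young. Ranking by mean rather than median exchanged Kcnj1 with Calb1 in young and Aqp2 with Slc12a3 in aged kidney. The level of Scnn1a was close to the filter of 0.1, where the added 0.1 and depth limit the precision.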

Other observations

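Pvalb, listed with the distal convoluted tubule and also a fast muscle gene, was 0 in all 10 young and all 10 aged kidney libraries and reached 0.622 in treated kidney, with too few libraries at 0.1 or more to be tested. The 5 skeletal muscle genes were at 0.1 or more in sum in 6 of 8 treated libraries and in 1 of 10 aged libraries. Whether Pvalb came from tubule or muscle was not tested. Avpr2, the vasopressin receptor upstream of Aqp2, had changes of -0.01 log2 with age (95% interval -0.21 to 0.19, limma adjusted p = 0.963) and 0.16 with RAD001 (95% interval -0.06 to 0.37, adjusted p = 0.242). Scnn1b and Scnn1g, the other channel subunits, were not called either: -0.12 and 0.09 with age (adjusted p = 0.164 and 0.446) and 0.11 and -0.02 with RAD001 (adjusted p = 0.275 and 0.861). Fxyd4, a collecting duct regulator of the sodium pump and the locus most alike to Aqp2, had -0.28 with age (adjusted p = 0.120) and 0.36 with RAD001 (adjusted p = 0.0709). These genes were chosen after their values were seen.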
